A study of Mus musculus with 12 samples.

Results

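The genes described here are 6 members of the mouse MS4A family, Ms4a4a, Ms4a4c, Ms4a6b, Ms4a6c, Ms4a6d and Ms4a7, taken by symbol from the 48526 gene identifiers of the count files. The annotation holds 19 genes of the family, and all of them lie in one cluster on chromosome 19. The 6 genes were followed in spinal cord microglia, isolated by cell sorting, of Biozzi ABH mice during chronic-relapsing experimental autoimmune encephalomyelitis (crEAE), a model of multiple sclerosis in which an acute attack is followed by remission and later by a chronic phase. Each of the 12 libraries came from 1 mouse: 3 controls without disease, 3 crEAE mice in the acute phase, 3 in remission and 3 in the chronic phase. All were of the same strain, and the cells were gated as CD11b-positive, CD45-intermediate and Ly-6C-negative. Ages, the immunisation, the treatment of the controls and the days of sampling are not given in the sources used here.

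MS4A proteins are small membrane proteins that cross the membrane several times and associate with other receptors in it. The best known members are CD20 of B cells (Ms4a1) and the beta chain of the high-affinity IgE receptor of mast cells and basophils (Ms4a2), whereas the Ms4a4, Ms4a6 and Ms4a7 genes are mostly found in monocytes, macrophages and microglia. MS4A4A associates with the fungal glucan receptor Dectin-1 in macrophages, and variation at the human MS4A cluster is linked to the amount of soluble TREM2, a microglial receptor. Ms4a7 is widely used as a marker of macrophages at the borders of the brain.

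By sequence the genes fall into an Ms4a4 arm and an Ms4a6 arm. The coding sequences of Ms4a6b and Ms4a6c were 86.4% identical over 641 aligned bases, and those of Ms4a6b and Ms4a6d were 82.2% identical over 723. Ms4a4a and Ms4a4c were 69.0% identical over 629 bases, and Ms4a7 was closest to Ms4a6b, with 67.2% over 509. On GRCm38 the 6 genes lie on chromosome 19 in the order Ms4a7 (ENSMUSG00000024672, 11321039 to 11336146, minus strand), Ms4a4a (ENSMUSG00000101389, 11375523 to 11392790, plus), Ms4a4c (ENSMUSG00000024675, 11404770 to 11427246, plus), Ms4a6c (ENSMUSG00000079419, 11469366 to 11482192, plus), Ms4a6b (ENSMUSG00000024677, 11516512 to 11531256, plus) and Ms4a6d (ENSMUSG00000024679, 11586604 to 11604849, minus).

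Upstream sequences from RefSeq (GRCm38.p6) were matched for 5 of the 6 genes, and the 250 bases before each start site were compared. Among these windows the pair Ms4a6b and Ms4a6c stood out: 172 bases, 68.8% of the window, aligned with 86.0% identity, whereas no other pair of windows aligned over more than 20.8%. The 2 stretches that were identical in both, of 24 and 48 bases, are in capitals below. They began 214 and 118 bases before the Ms4a6b start site and 141 and 49 bases before that of Ms4a6c. The Ms4a6c sequence is chr19:11469118-11469365 and the Ms4a6b sequence is chr19:11518309-11518452, both on the plus strand. Each is printed up to the first base that lies in an annotated exon of the same gene, which cuts the second stretch short in both. The Ms4a6b window lies inside the annotated gene, which begins at 11516512, so it is upstream of the RefSeq start site only. In Ms4a6b most of the second stretch lies past the first exon base.
Ms4a6c: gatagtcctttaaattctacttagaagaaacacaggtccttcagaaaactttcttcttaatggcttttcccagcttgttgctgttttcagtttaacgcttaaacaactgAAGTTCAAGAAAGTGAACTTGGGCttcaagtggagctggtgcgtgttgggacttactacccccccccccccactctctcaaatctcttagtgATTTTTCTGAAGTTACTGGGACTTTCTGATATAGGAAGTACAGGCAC
Ms4a6b: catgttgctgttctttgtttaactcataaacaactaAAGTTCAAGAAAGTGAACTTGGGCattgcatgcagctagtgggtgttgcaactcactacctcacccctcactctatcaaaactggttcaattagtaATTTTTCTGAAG

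The upstream window of Ms4a4a (chr19:11375238-11375487, plus strand) is shown because it held the only match of 5 short motifs in the members' windows, a match to the NF-kB motif (GGGA, any base, TTTCC), in capitals.
Ms4a4a: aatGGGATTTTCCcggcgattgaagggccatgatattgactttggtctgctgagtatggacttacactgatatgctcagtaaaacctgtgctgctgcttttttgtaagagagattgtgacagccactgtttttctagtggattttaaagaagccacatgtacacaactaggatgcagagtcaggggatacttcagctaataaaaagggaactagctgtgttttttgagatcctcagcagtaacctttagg
This match began 247 bases before the start site, and 0.356% of 32851 upstream windows of the same length held the motif on either strand. The PU.1 motif GAGGAAGT (2.44% of all windows), the interferon-stimulated response element (GAAA, any 2 bases, GAAA; 2.98%), the ETS-IRF composite (GGAA, any 2 bases, GAAA; 2.3%) and the GAS motif TTCNNNGAA (7.02%) had no match in these windows.

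The libraries held 3992885 to 5712376 counts, of which the 6 most abundant features took 48.3% to 64.1%. Without these features and the mitochondrial genes, 1266782 to 1459329 counts were left in the acute libraries and 1712663 to 2496096 in the controls, and the mitochondrial share was 5.17% to 5.74% in acute libraries against 1.92% to 2.29% in controls, 2.51% to 3.81% in remission and 3.02% to 4.36% in the chronic phase. The sorted cells carried the homeostatic microglia genes (12 genes such as P2ry12, Tmem119 and Sall1): their summed level was 7060 to 8080 CPM in controls, 5190 to 5340 in remission, 4920 to 5340 in the chronic phase and 1110 to 1920 in the acute phase. Levels are in CPM, counts scaled to library size with TMM factors, and differences were tested with edgeR's quasi-likelihood test in one model of all 12 libraries, with Benjamini-Hochberg adjustment over the 12545 genes that passed a filter on low counts. Of the 6 members, 5 passed the filter. Ms4a7 did not pass, and its counts are given without a test.

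The 3 Ms4a6 genes, which are expressed in monocytes, macrophages and microglia, were detected in every library. Ms4a6d was at 19.8, 16.8 and 19.0 CPM in the controls (replicates 1 to 3), 72.1, 59.9 and 59.0 in the acute phase, 17.7, 26.8 and 21.5 in remission and 40.0, 30.8 and 63.3 in the chronic phase. Every acute library and every chronic library lay above every control, whereas remission overlapped the controls; of all genes tested, 30% were higher without overlap in acute than control and 16.5% in chronic than control. Ms4a6b was at 15.4, 18.0 and 17.9 CPM in the controls, 72.9, 64.5 and 44.5 in the acute phase, 12.6, 16.3 and 14.1 in remission and 54.9, 14.6 and 54.1 in the chronic phase. For this gene, chronic replicates 1 and 3 were at acute levels and chronic replicate 2 was below the lowest control.

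Ms4a6c was at 3.27, 1.93 and 3.88 CPM in the controls, 45.7, 46.4 and 41.2 in the acute phase, 3.88, 10.9 and 3.19 in remission and 20.7, 8.82 and 39.8 in the chronic phase. All 3 chronic libraries were above all controls, over a wide range. Exons of Ms4a6c overlap those of BE692007, a non-coding transcript on the other strand, and 47.7% of the 75-base windows of Ms4a6c transcripts also occur in BE692007 or Ms4a6b transcripts. The library kit keeps no strand, so reads of Ms4a6c and BE692007 in the overlap cannot be told apart. BE692007 itself was at 3.41, 1.58 and 3.88 CPM in controls, 26.7, 24.2 and 20.5 in the acute phase, 6.64, 7.65 and 5.58 in remission and 24.3, 7.92 and 24.7 in the chronic phase. The other members shared at most 3.78% of their windows with another Ms4a gene or BE692007. Exons of Ms4a4c and Ms4a6b also overlap those of Gm5692 and Gm19261 on the other strand, which were not in the window count. Gm5692 had 10 counts and Gm19261 had 4 over all libraries.

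The Ms4a4 genes were low or absent outside the acute phase. Ms4a4a had 0 counts in all 3 control libraries, which allows up to 0.173 CPM (3 counts over the group, counting error only). It was at 34.2, 27.2 and 19.0 CPM in the acute phase, at 0, 1.34 and 0 in remission and at 1.82, 0 and 1.79 in the chronic phase. The acute libraries thus stood apart from all other libraries for this gene. Ms4a4c, which is known as an interferon-inducible gene in mouse myeloid cells, was at 2.56, 1.40 and 2.59 CPM in controls, 44.9, 40.5 and 21.6 in the acute phase, 2.77, 2.68 and 3.45 in remission and 3.41, 3.60 and 11.5 in the chronic phase. All remission and chronic libraries lay above the highest control, chronic replicate 3 by the most; 14.4% of all genes tested lay this way in remission.

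Ms4a7 was the scarcest member. It had 0 counts in the controls, was at 1.56, 3.73 and 3.85 CPM in the acute phase (33 counts in all), at 0.923, 0.574 and 0.266 in remission (9 counts) and at 0.454, 0.540 and 1.28 in the chronic phase (10 counts). It was detected in all 9 crEAE libraries and in no control library.

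**Figure D1:**
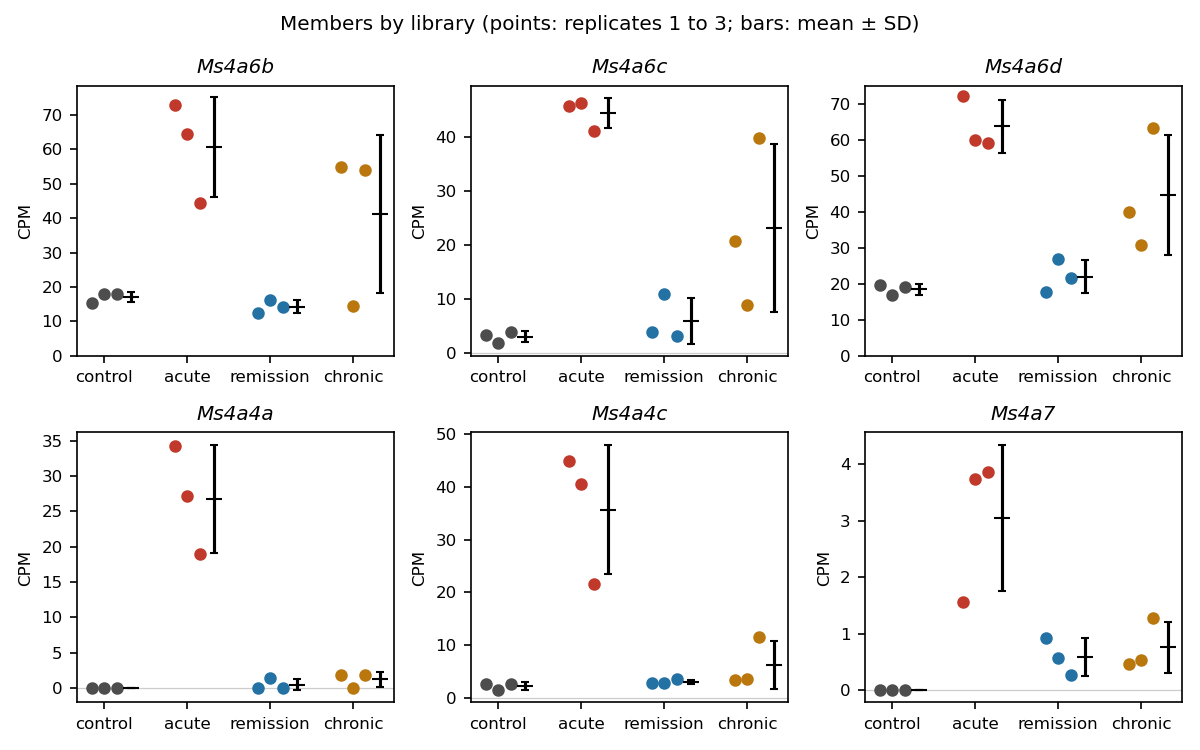
CPM (vertical axis, linear, a separate scale for each gene) of the 6 genes in the 12 libraries by group; points are replicates 1 to 3 and bars the mean ± SD (n = 3). The acute libraries are highest for Ms4a4a, Ms4a4c and Ms4a7, and chronic replicate 2 lies low for Ms4a6b (14.6 CPM) and Ms4a6c (8.82 CPM).

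To compare levels between genes, CPM were divided by the length of each gene's annotated exons in kilobases. In controls Ms4a6d led, at 10.7 CPM per kb, before Ms4a6b at 3.81, Ms4a6c at 1.48 and Ms4a4c at 1.25. In the acute phase Ms4a6d was at 36.7 CPM per kb and Ms4a4a at 32.1, and these did not differ beyond their spread (SD 4.22 and 9.14, n = 3). Ms4a6c at 21.7 and Ms4a4c at 20.4 CPM per kb followed, again closer to each other than their spread, and Ms4a6b was at 13.5. In the chronic phase the order was Ms4a6d at 25.7, Ms4a6c at 11.3, Ms4a6b at 9.19, Ms4a4c at 3.52 and Ms4a4a at 1.44 CPM per kb. In remission Ms4a6d was at 12.7, Ms4a6b at 3.19, Ms4a6c at 2.92, Ms4a4c at 1.69 and Ms4a4a at 0.534 CPM per kb. Ms4a7 was last in the 3 disease groups, at 0.684, 0.132 and 0.170 CPM per kb in the acute, remission and chronic phases. The annotated exons of some genes include long minor transcripts, and a per-length level is lowered by exons that are not used. The place of Ms4a6c in these orders is uncertain, since 47.7% of its windows are shared with BE692007 or Ms4a6b and how such reads were counted is not given in the sources used here.

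The comparison of acute disease with control asks how the sorted cells differ at the attack. All 5 tested members rose, by amounts that differed widely. Ms4a4a passed the count filter only through its acute libraries, so its direction was set by the filter and adds nothing to this count. The background was large: 23.7% of all genes tested were higher. Ms4a4c rose from 2.18 ± 0.677 to 35.7 ± 12.3 CPM (mean ± SD, n = 3), a log2 fold change of 4.02 ± 0.43 (SE; adjusted p = 2.01e-06, edgeR). Ms4a6c rose by 3.88 ± 0.60 (adjusted p = 0.000515), from 3.03 ± 1 to 44.4 ± 2.80 CPM. Ms4a6b rose by 1.83 ± 0.42 (adjusted p = 0.00565), from 17.1 ± 1.51 to 60.6 ± 14.6 CPM, and Ms4a6d by 1.78 ± 0.22 (adjusted p = 4.03e-06), from 18.5 ± 1.53 to 63.7 ± 7.32 CPM. Ms4a4a, with 0 counts in controls and 298 in the acute libraries, was at least 157-fold higher (adjusted p = 0.000193). Ms4a7, not tested, was at least 17.4-fold higher by its counts. The median log2 change of the 5 tested members was 3.88, against 0.02 for all genes. In bulk samples such as these, a change in the number of cells of a type and a change in RNA per cell cannot be told apart.

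Markers of other cells moved with this comparison. The summed level of 14 monocyte and recruited macrophage genes (such as Ly6c2, Ccr2 and Plac8) was 25.0, 27.2 and 65.0 CPM in the controls and 2560, 2140 and 1690 in the acute libraries, and all 13 tested genes of the list were higher. Ly6c2, Chil3, F10 and S100a4 had 0 counts in controls. T and NK cell genes summed to 0.142 to 1.05 CPM in controls and 79.7 to 121 in the acute phase (6 of 6 tested genes higher), and neutrophil genes to 0.350 to 0.647 and 128 to 427 (9 of 9 higher). The 12 homeostatic microglia genes were all lower, where 20% of all genes were. Border macrophage genes summed to 92.0 to 128 CPM in controls and 269 to 327 in the acute phase (2 of 3 tested genes higher). In this list F13a1 went from 0.356 to 82.3 CPM and Cd36 from 0.886 to 56.8, whereas Lyve1, Cd209f and Folr2 had 0 counts in the acute libraries. Mast cell and basophil genes summed to 0 to 0.216 CPM in controls and 7.19 to 34.4 in the acute phase. Hdc, the 1 tested gene of that list, was at 5.71, 6.39 and 29.6 CPM in the acute libraries, where Mcpt4, Cma1 and Tpsb2 had 0 counts. Neural, vascular and erythroid genes summed to 72.1 to 85.7 CPM in controls and 396 to 487 in the acute phase (5 of 9 tested genes higher and 1 lower). The B cell genes did not move together: of 2 tested, Cd22 was higher (2.26 to 10.4 CPM) and Cd79b lower (3.12 to 0.817 CPM). Nor did the dendritic cell genes: of 4 tested, Flt3 was higher (0.593 to 5.76 CPM), and Zbtb46 (14.8 to 7.02 CPM) and Siglech (344 to 53.9 CPM), the latter also in the homeostatic microglia list, were lower. Acute replicate 3, with the lowest monocyte sum of the 3, also had the lowest level of each of the 5 tested members, and the highest Ms4a7 (3.85 CPM). Many genes of these lists were near absent outside the acute phase and passed the filter through the acute libraries. Their direction was thus largely set in advance, and the counts of genes called add little to the sums. The part of these cells in the members' rise was not tested.

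In remission the members were below their acute levels. Against the acute phase all 5 tested members fell, where 19.4% of all genes were lower. The direction of Ms4a4a, which passed the filter only through the acute libraries, was set in advance here too. Ms4a4a fell by 5.72 on the log2 scale (SE 0.87, adjusted p = 0.000756, edgeR), Ms4a4c by 3.60 (SE 0.42, adjusted p = 9.40e-06) and Ms4a6c by 2.85 (SE 0.56, adjusted p = 0.00292). Ms4a6b and Ms4a6d fell by 2.08 (SE 0.44, adjusted p = 0.00405) and 1.53 (SE 0.22, adjusted p = 3.31e-05). Ms4a7 had 0.208 times its acute level (95% counting interval 0.0875 to 0.444). The monocyte sum was 31.6, 23.1 and 31.1 CPM in remission. Neutrophil genes summed to 57.4, 2.3 and 1.06 CPM in remission replicates 1 to 3, against 0.35 to 0.647 in controls. Neural, vascular and erythroid genes summed to 606, 54.3 and 119 CPM, against 72.1 to 85.7 in controls. In either list, 0 of 9 tested genes were called higher than in controls by edgeR. The part of these cells in the remission levels was not tested.

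Against the controls, 0 of the 5 members were called in remission by edgeR, 0 had an unadjusted p under 0.05, and 0 were called by DESeq2 or by limma-voom; 6.06% of all genes were higher and 3.25% lower. The log2 changes were 1.03 for Ms4a6c (adjusted p = 0.453), 0.42 for Ms4a4c (0.722), 0.25 for Ms4a6d (0.593) and -0.25 for Ms4a6b (0.819). Ms4a4a had 7 counts in remission, all in replicate 2, against 0 in controls (at least 2.81-fold, adjusted p = 0.361), and Ms4a7 had 9 against 0 (at least 3.62-fold, not tested). Remission replicate 2 had the highest Ms4a4a, Ms4a6b, Ms4a6c and Ms4a6d of the 3. These comparisons share the remission libraries with the one above.

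In the chronic phase 2 of the 5 tested members, Ms4a6d and Ms4a6c, were higher than in controls, where 9.57% of all genes were higher. Ms4a6d rose to 44.7 ± 16.7 CPM, by 1.26 ± 0.22 (adjusted p = 0.000636, edgeR), and Ms4a6c to 23.1 ± 15.6 CPM, by 2.90 ± 0.62 (adjusted p = 0.0107). Ms4a4c at 6.16 ± 4.6 CPM (log2 change 1.44, adjusted p = 0.0597), Ms4a6b at 41.2 ± 23.0 CPM (1.25, adjusted p = 0.0827) and Ms4a4a (15 counts against 0, at least 6.26-fold, adjusted p = 0.134) did not pass. Ms4a7 was at least 4.17-fold higher by its counts, not tested. Each of the 5 tested members had an unadjusted p under 0.05, but the share of all genes under that mark is not given here, so this adds no call. The median log2 change of the 5 tested members was 1.44, against -0.01 for all genes.

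These counts rested on single libraries. Chronic replicate 2 had the lowest Ms4a6b, Ms4a6c, Ms4a6d and Ms4a4a of its group, and without it all 5 tested members were called, Ms4a6b with a log2 change of 1.67 (adjusted p = 5.85e-06), Ms4a4c with 1.73 (0.0249) and Ms4a4a with an adjusted p of 0.0149. Without control replicate 2, only Ms4a6d was called, and Ms4a6c had a log2 change of 2.67 (adjusted p = 0.0515). DESeq2 called 4 of the 5, all but Ms4a4a. Ms4a4c was also called with the number in the sample titles as a covariate (1.68, adjusted p = 0.0286; 3 of 5 members called) and without acute replicate 1, acute replicate 3 or chronic replicate 1 (adjusted p from 0.0289 to 0.0473).

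The summed level of the monocyte genes in the chronic libraries was 37.9, 31.3 and 44.6 CPM, against 25.0, 27.2 and 65.0 in the controls: all 3 lay above control replicates 1 and 2 and below control replicate 3, in which Fn1 was at 30.2 CPM. In this list 0 of 13 tested genes were higher than in controls by edgeR and 1, Ccr2, was lower, the only 1 with an unadjusted p under 0.05, and F10 and S100a4 had 0 counts. T and NK cell genes summed to 1.02 to 1.14 CPM, and Cd3e, Trac and Nkg7 had 0 counts. Neutrophil genes summed to 1.36, 0.180 and 12.2 CPM. The mitochondrial share of counts was 4.36%, 3.02% and 4.25% in chronic replicates 1 to 3, above the controls in each and lowest in replicate 2; its part in the members' levels was not tested. Among border macrophage genes the sum was 221, 112 and 143 CPM against 92.0 to 128 in controls, with Lyve1, Pf4 and Cd209f at 0 counts in both groups; 1 of 3 tested genes, Cd36, a scavenger receptor also found on monocytes, was higher (20.8 against 0.886 CPM, log2 change 4.53, adjusted p = 0.00227). The part of border macrophages in the chronic levels was not tested. Of the homeostatic genes, 7 of 12 were lower than in controls, where 5.17% of all genes were.

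**Figure D2:**
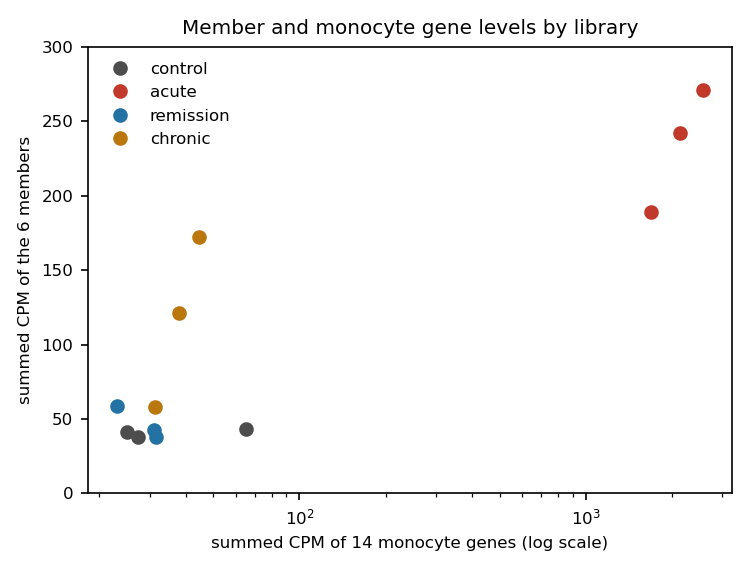
Summed CPM of the 6 Ms4a genes (vertical axis, linear) against the summed CPM of 14 monocyte and recruited macrophage genes (horizontal axis, log scale), one point per library, coloured by group. Chronic replicates 1 and 3 reach 121 and 172 CPM of the Ms4a genes at 37.9 and 44.6 CPM of the monocyte genes, whereas the acute libraries lie at 1690 to 2560 CPM of these.

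Against the acute phase, Ms4a4a and Ms4a4c were lower in the chronic phase, 2 of the 5 tested members, where 15.5% of all genes were lower. For Ms4a4a, which passed the filter only through the acute libraries, this direction was set in advance. Ms4a4a fell by 4.56 (SE 0.78, adjusted p = 0.00207, edgeR) and Ms4a4c by 2.58 (SE 0.39, adjusted p = 0.00014). The 3 Ms4a6 genes did not pass: Ms4a6c had a log2 change of -0.97 ± 0.49 (adjusted p = 0.181), Ms4a6b of -0.58 ± 0.40 (0.332) and Ms4a6d of -0.52 ± 0.21 (0.0712). Without chronic replicate 3, the library with the highest Ms4a6c and Ms4a6d of its group, Ms4a6c (-1.59, adjusted p = 0.018) and Ms4a6d (-0.83, adjusted p = 0.00163) were also called, 4 of 5 in all. limma-voom likewise called these 4, and DESeq2 called 1, with an adjusted p of 0.0667 for Ms4a4a. A difference between the 2 arms of the family was not tested.

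Against remission, Ms4a6d was the 1 member of 5 that was higher in the chronic phase, where 0.941% of all genes were higher. Its log2 change was 1.01 ± 0.22 (adjusted p = 0.0333, edgeR). The call was lost without any of control replicates 1, 2 or 3, acute replicate 2, remission replicates 1 or 3 or chronic replicate 3, with adjusted p from 0.0506 to 0.134, and the change was 0.68 without chronic replicate 3. Ms4a6c (1.88 ± 0.57, adjusted p = 0.156), Ms4a6b (1.51 ± 0.44, 0.14), Ms4a4c (1.02 ± 0.48, 0.317) and Ms4a4a (1.16 ± 1.24, 0.73) did not pass. Without chronic replicate 2, 3 members were called, with Ms4a6b at 1.92 (adjusted p = 0.000103) and Ms4a6c at 2.27 (0.0155) joining Ms4a6d. The comparisons above share groups with each other and are not independent.

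**Figure D3:**
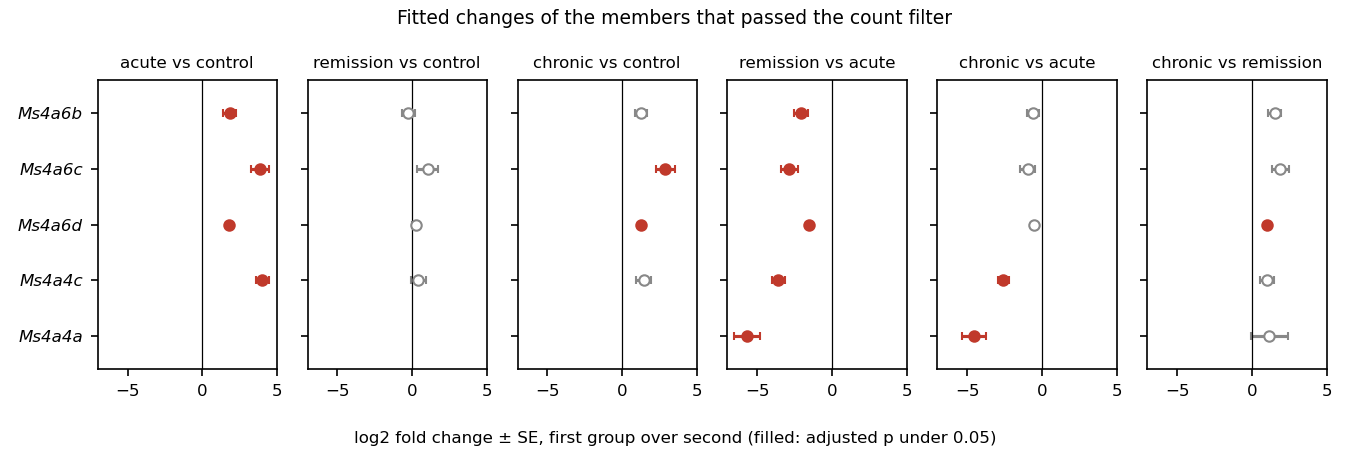
Log2 fold change ± SE (horizontal axis) of the 5 members that passed the filter in the 6 comparisons, with filled points for an adjusted p under 0.05; Ms4a4a is not drawn against controls, where it had 0 counts. All drawn members are higher in acute than control and lower in remission than acute, and against the acute phase the chronic phase is lower for Ms4a4c (-2.58) and Ms4a4a (-4.56).

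The make-up of the members' summed counts also differed between phases. Shares of these counts do not depend on scaling between libraries, but they are not corrected for exon length, so longer genes weigh more. These sums rested on 160 to 1046 counts a library. Ms4a6d and Ms4a6b together held most of the counts in controls, with 45.4% ± 2.52 (SD, n = 3, range 43.8% to 48.3%) and 42.0% ± 4.91. In the acute phase Ms4a6d and Ms4a6b held 27.5% ± 3.32 (24.8% to 31.2%) and 25.7% ± 1.87. With counts divided by exon length, the mean shares of Ms4a6d and Ms4a6b were 62.1% and 22.3% in controls. In the acute phase they were 29.8% and 10.7%, with Ms4a4a at 25.3%, Ms4a6c at 17.6% and Ms4a4c at 16%. In raw counts, Ms4a4a went from 0% to 11.3% ± 1.3, Ms4a4c from 5.30% ± 1.42 to 14.9% ± 3.00 and Ms4a6c from 7.33% ± 2.04 to 19.3% ± 2.48. The raw shares of the 2 groups did not overlap for any of these 5 genes, and no share over all genes exists for this measure. Shares of a library add up to the whole, so larger shares of some genes force smaller shares of others. The 5 are thus not separate results, and Ms4a6d and Ms4a6b themselves rose in CPM. An exact permutation test of 3 libraries against 3 cannot go below p = 0.10, so no test is given.

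In the chronic phase Ms4a6c held 18.4% ± 4.21 (15.1% to 23.2%), above every control, while Ms4a4c at 5.22% ± 2.11 and Ms4a4a at 0.846% ± 0.768 were far below their acute shares. Ms4a6d held 33.0% to 52.8%, with the highest share in replicate 2. In remission Ms4a6d held 47.7% ± 2.56 and Ms4a6c 12.1% ± 5.80, the latter with 18.6% in the highest library.

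**Figure D4:**
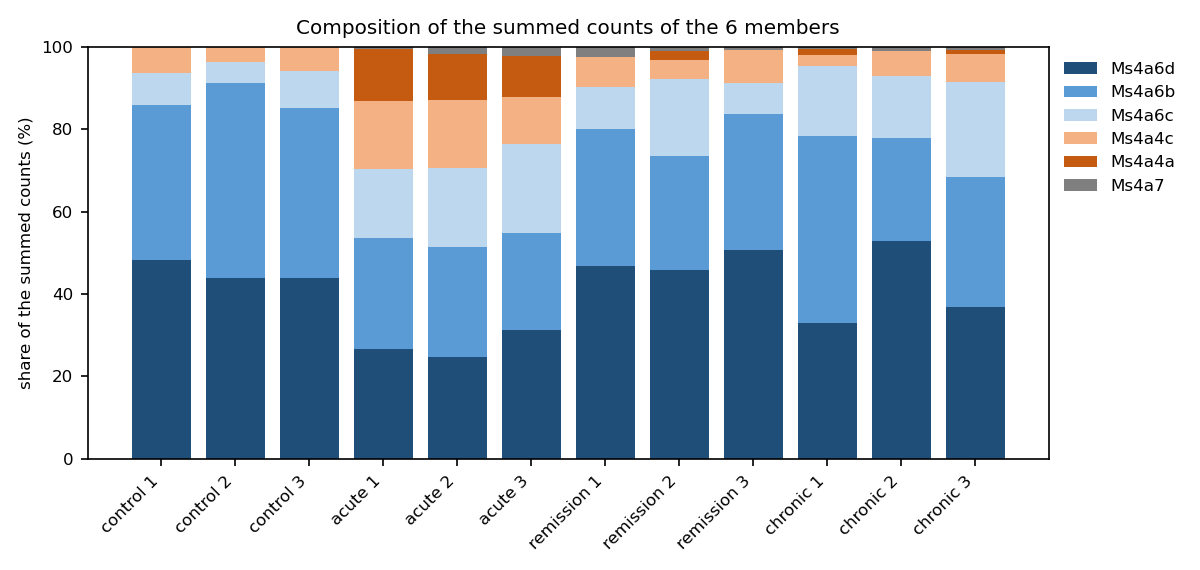
Share of the summed counts of the 6 Ms4a genes (vertical axis, percent, not corrected for exon length) held by each gene in each of the 12 libraries. The orange segments of Ms4a4a and Ms4a4c are largest in the acute libraries (means 11.3% and 14.9%), and the pale blue Ms4a6c segment is larger in the chronic libraries (mean 18.4%) than in the controls (7.33%).

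Among the 13 other genes of the family, 4 had at least 10 counts over all libraries. Ms4a8a was at 13.2, 20.5 and 7.71 CPM in the acute phase and had 0 counts in controls and remission and 1 in the chronic phase. It was at least 81.2-fold higher in acute than control (adjusted p = 5.25e-07, edgeR). Ms4a4b, best known from T cells, where it modulates activation, was at 13.2, 10.9 and 6.82 CPM in the acute phase and 0.142, 0 and 0.432 in controls, a ratio of 60.6 (95% counting interval 20.2 to 298; adjusted p = 9.42e-06). In the chronic phase it was at 3.41, 0.540 and 2.04 CPM, 3.29 ± 0.91 above controls on the log2 scale (adjusted p = 0.0181), with 26 counts against 3. Both Ms4a8a and Ms4a4b passed the filter only through the acute libraries, so their direction in acute against control was set in advance. Ms4a14 had 18 and Ms4a4d 12 counts in all 12 libraries together. Ms4a1 had 2 counts, Ms4a2 had 5 and Ms4a3 had 6, and all 5 of Ms4a2 were in the acute libraries.

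A list of 15 receptors and signalling genes linked to MS4A proteins was read beside the members. In acute disease 6 of the 15 rose and 6 fell, where 43.7% of all genes changed. Clec7a, which encodes Dectin-1, rose from 4.54 to 154 CPM (log2 change 5.09 ± 0.35, adjusted p = 1.99e-07, edgeR), and the low-affinity IgG receptor genes Fcgr2b (1.55 ± 0.16) and Fcgr4 (3.37 ± 0.47) rose too. Trem2 fell from 350 to 90.9 CPM, by 1.95 (SE 0.18, adjusted p = 7.26e-08), and the tetraspanin gene Cd81 fell by 1.60 (SE 0.15). The members thus rose in libraries where Trem2 was lower and Clec7a higher.

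In the chronic phase 5 of the 15 were higher than in controls, where 9.57% of all genes were higher. None of the 15 was lower by this test, where 5.17% of all genes were, and 6 of the 15 had an unadjusted p under 0.05. Clec7a was at 52.1 CPM (3.53 ± 0.35, adjusted p = 2.57e-05, edgeR) and Fcgr4 at 14.4 CPM (2.79 ± 0.48, adjusted p = 0.000898). The adaptor genes Fcer1g (0.71 ± 0.12) and Tyrobp (0.60 ± 0.13), which carry the signal of activating receptors, and the tetraspanin gene Cd9 (0.87 ± 0.22) were also higher. Trem2, at 356 CPM against 350, did not pass (adjusted p = 0.952). In remission 2 of the 15 were higher than in controls, Clec7a at 29.2 CPM (2.71 ± 0.36, adjusted p = 0.000395) and Cd9 (0.91 ± 0.22, adjusted p = 0.0156), where 9.31% of all genes changed.

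The genes whose pattern lay nearest to each member were found by the root mean square difference of log2 CPM, centred on each gene's mean, over the 12 libraries. The candidates were 6392 tested genes with a mean of at least 10 CPM. Other Ms4a genes, pseudogenes, predicted genes (Gm and Rik names) and identifiers without a symbol were left out. For Ms4a4c the nearest were Irf7, a transcription factor of the interferon response (difference 0.26), Iqgap1 (0.35) and Txn1 (0.38), against a median of 1.55 over all candidates. For Ms4a6d they were Eif2ak2, the interferon-induced kinase PKR (0.23), Mapkapk2 (0.24) and Slfn9 (0.25), against a median of 0.80. For Ms4a6b they were Psma6 (0.40), Il15ra (0.42) and Coa5 (0.43), against 0.98. For Ms4a6c they were BE692007 (0.56), with which it shares exon sequence, Sh3bgrl (0.61) and Fxyd5 (0.63), against 1.61. For Ms4a4a they were Vim (0.58), Cd38 (0.74) and Cytip (0.79), against 2.45. Within the family the closest pair was Ms4a6b and Ms4a6d (0.40) and the farthest Ms4a4a and Ms4a6d (1.81). These distances describe the 12 libraries, which share their groups, and carry no test.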

How the data were processed

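RNA of sorted microglia was reverse transcribed with random hexamers, made into Nextera XT libraries and sequenced as single 75-base reads, per the labels' protocols. HISAT2, SAMtools 1.3.1, Picard 2.6.4 and HTSeq 0.6.1 with GRCm38 are named in the submitters' processing notes; the HISAT2 version, the HTSeq settings and the annotation release are not given in the sources used here. The authors deposited whole-number read counts per gene, not normalized. Identifiers were given symbols from GENCODE M21 (48144 of 48526 matched; the other 382 hold 0.02078% of counts).

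Groups came from the disease-phase labels, and replicates are numbered in accession order. Counts were fitted with edgeR 4.0.16 (R 4.3.3; filterByExpr, TMM, robust quasi-likelihood test), and a gene was called at an adjusted p under 0.05 over 12545 genes. Standard errors are the log2 change over the square root of F. Replicate pairs differed by more than sampling noise (chi-square per degree of freedom 4.40 to 12.6), so each counts as 1 sample. Where a group had 0 counts, folds were taken against 3 counts over the group; intervals and floors cover counting error only. Alternatives used limma 3.58.1, DESeq2 1.42.0, other scalings and filters, the number in the sample titles as a covariate and leaving out each library. The fit was tested on simulated data. Sequences came from RefSeq and GENCODE and were aligned with Biopython 1.88.

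The members and lists were chosen with earlier results of these data known, and the motifs after some upstream sequence had been seen. Named genes were the 6 members, other Ms4a genes with at least 10 counts, up to 6 linked genes per comparison by smallest p, and the 3 nearest genes to each member; Ms4a1, Ms4a2 and Ms4a3, the linked genes Trem2 in the chronic phase and Cd36 were named after their values were seen.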

Additional observations from a re-analysis of the deposited data

How the results depend on the processing

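Acute against control and remission against acute kept the direction and call of all 5 tested members in 100 of 100 refitted values each. For Ms4a4a, which passed the filter only through the acute libraries, that direction was set in advance. The other comparisons depended more on the processing, and the cause was not tested. Members called higher in remission than control were 0, but 2 with no filter on low counts (Ms4a4a and Ms4a7); the Ms4a4a change there was 0.00 without remission replicate 2, the only library of the 2 groups with its reads, and up to 4.89 when other libraries were left out. Members called higher in chronic than control were 2, but 4 with DESeq2, and 1 to 5 when each library was left out in turn. With no filter all 6 members were tested and 5 were called, Ms4a7 among them but not Ms4a6b (adjusted p = 0.191, edgeR). Members called lower in chronic than acute were 2, but 1 with DESeq2 and 4 with limma-voom, and 2 to 4 when each library was left out. Members called higher in chronic than remission were 1, but 3 with DESeq2, 0 with limma-voom, 0 with only the 2 groups fitted and 0 when the title number entered as a covariate, and 0 to 3 when each library was left out. With library totals in place of TMM, the median of all genes moved to -0.53 in acute against control and to -0.37 in chronic against control, and the share of calls that were higher from 54.3% to 22.8% and from 64.9% to 21.7%; the numbers of members called were 5 and 2, as in TMM. That share went from 65.1% to 32.6% in remission against control, from 47.6% to 71.2% in remission against acute, from 46.3% to 64.4% in chronic against acute and from 78.1% to 61.4% in chronic against remission. No paired analysis was possible because the labels do not say what the letter and number ending each title mean. With the number as a covariate, 3 members were called in chronic against control, Ms4a4c among them. All 3 chronic libraries have the number 1 and the other groups hold both numbers, so this covariate is partly confounded with phase. Depth limits Ms4a7 and, outside the acute phase, Ms4a4a, which had 7 counts in remission and 15 in the chronic phase.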
